A study of Homo sapiens with 7 samples.

Results

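The genes described here are 38 human genes of tRNA charging: 36 aminoacyl-tRNA synthetases and the scaffold genes AIMP1 and AIMP2. They were taken by symbol from a table of 60591 gene rows, and a row with the listed symbol was present for each of them. The list does not hold every human synthetase. By compartment, 18 encode cytosolic enzymes, 16 encode mitochondrial enzymes, and GARS1 and KARS1 each encode an enzyme that works in both places. The libraries were 3 from TE11 cells given 0.07% DMSO as vehicle and 4 from TE11 cells given 200 µM diclofenac, each for 48 h. No DMSO percentage is recorded here for the diclofenac libraries. Diclofenac is a cyclooxygenase inhibitor used as an anti-inflammatory drug. TE11 is a cell line labelled as esophageal squamous cell carcinoma. The title of the series asks about metabolic pathways and p53 signaling, and the comparison is diclofenac against vehicle.

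Aminoacyl-tRNA synthetases join each amino acid to its tRNA, so that the ribosome can read the genetic code. The cytosol and the mitochondrion each run their own translation, and most amino acids therefore have a cytosolic enzyme and a separate mitochondrial one, both encoded in the nucleus. In the cytosol, several synthetases and the AIMP proteins form a multisynthetase complex. Many cytosolic synthetase genes are known to be switched on by ATF4, a factor made in the integrated stress response that binds C/EBP-ATF response elements when amino acids run short or mitochondria are stressed.

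Under diclofenac 10 of the 18 cytosolic synthetase genes rose and 7 fell, and of the 15 mitochondrial genes that could be tested 13 fell and 1 rose. Changes were common in this comparison: 30.2% of all tested genes rose and 29.5% fell, and among well-expressed genes 52.1% fell. GARS1, the glycine enzyme of both compartments, had the highest fold of the members (1.57-fold), and MARS2, the mitochondrial methionine enzyme, had the lowest (0.561-fold). For 10 amino acids a cytosolic transcript rose and the mitochondrial one fell. For threonine the cytosolic gene counted here was TARS1, while TARS3, a second cytosolic threonine gene, fell.

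Promoter stretches with a match to the C/EBP-ATF response element are shown because ATF4 is known to bind it. Its core, TGATGNAA, was searched on both strands (the other strand reads TTNCATCA) in RefSeq promoter windows of build GRCh38.p14, each of 300 bases with 250 before the annotated start of transcription. A window was found for 32 of the 38 members, with more than 1 window for some genes, and the motif for 8 of them. They are printed 5′ to 3′ on the strand of the gene, 30 bases each, with the match in capitals.

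AARS1, chr16:70289675-70289704, minus strand: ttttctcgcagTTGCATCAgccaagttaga
CARS1, chr11:3057407-3057436, minus strand: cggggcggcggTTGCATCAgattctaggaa
GARS1, chr7:30594834-30594863, plus strand: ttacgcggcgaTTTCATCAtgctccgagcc
IARS1, chr9:92293692-92293721, minus strand: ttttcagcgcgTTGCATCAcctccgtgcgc
MARS1, chr12:57488053-57488082, plus strand: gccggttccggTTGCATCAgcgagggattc
NARS1, chr18:57621804-57621833, minus strand: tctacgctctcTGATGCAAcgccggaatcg
TARS1, chr5:33440956-33440985, plus strand: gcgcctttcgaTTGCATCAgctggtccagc
YARS2, chr12:32756076-32756105, minus strand: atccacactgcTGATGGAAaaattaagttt

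The first 7 of these genes rose under diclofenac, and YARS2, the mitochondrial tyrosine enzyme, fell. AARS1, CARS1, IARS1, MARS1, NARS1 and TARS1 share the same 8 letters, TGATGCAA on one strand or the other, and all 6 are cytosolic. The match lay within 33 bases of the annotated start in 6 genes, across the start itself in MARS1 and CARS1. In AARS1 it began 187 bases upstream, in this stretch of 250 bases that ends at the start (GRCh38.p14, chr16:70289507-70289756, minus strand, match in capitals): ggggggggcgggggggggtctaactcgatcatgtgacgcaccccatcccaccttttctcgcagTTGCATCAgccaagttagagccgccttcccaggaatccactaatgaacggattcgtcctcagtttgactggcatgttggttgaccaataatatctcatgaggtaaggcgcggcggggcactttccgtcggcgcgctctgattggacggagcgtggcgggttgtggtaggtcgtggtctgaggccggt

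No window was found for LARS1 and YARS1, which rose, for VARS1, TARS3 and AARS2, which fell, or for VARS2, which was not tested. Of members with a window, the motif was found in 7 of the 10 that rose and in 1 of the 19 that fell. SARS1, WARS1 and PARS2 rose with no match in their windows. These shares were not tested against other genes. Of all 35116 windows 3.62% held the motif, and of all 27305 genes with a window 4.46% did. Among tested genes with a window it was held by 3.86% of those that rose and 1.65% of those that fell. The exact letters TGATGCAA, counted after the matches had been seen, were in 1.08% of all genes with a window. A match is a description of the letters, and binding was not measured.

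**Figure D1:**
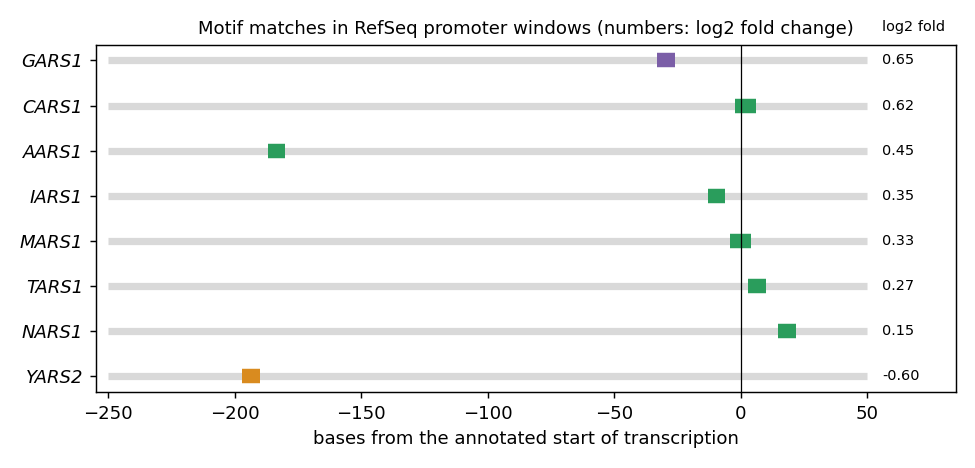
Position of each motif match (coloured block) in its promoter window (grey bar), in bases from the annotated start of transcription, for the 8 members with a match. Green is cytosolic, purple works in both compartments and orange is mitochondrial, and the number at the right is the log2 fold change; the 7 genes that rose lie above YARS2, which fell, and only AARS1 and YARS2 have the match far upstream.

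Total counts ran from 19878696 to 26490829 per library, and the 38 members together took 0.610% to 0.617% of them in the vehicle and 0.716% to 0.729% in the diclofenac libraries. These shares are of unscaled totals. By such totals the log2 fold changes of all genes lay higher by a median of 0.18 than after scaling between libraries. Libraries of a group differed beyond sampling noise, and nothing in the labels says that they came from separate cultures, so the p-values reflect only how these samples spread, possibly for technical reasons. The squamous label of the cells was not borne out by several of its markers. KRT6A had no count, and KRT5 had 0 counts in the vehicle and 1 in the diclofenac libraries. TP63 had 2 and 5, KRT14 had 3 and 2 and KRT13 had 5 and 14. SOX2 stood at 12.8 ± 1.02 and KRT18 at 63 ± 3.21 CPM (counts scaled to a common library total) under vehicle (SD, n = 3). Of the 10 squamous markers 5 reached 1 CPM in all libraries (SOX2, CDH1, EPCAM, KRT8 and KRT18), against 1 of 5 fibroblast markers (COL1A1). COL1A1 stood at 15.8 ± 1.09 CPM under vehicle, above SOX2, so the markers do not settle the squamous label. PTPRC, a gene of leukocytes in general, had 2 counts in the vehicle and 6 in the diclofenac libraries. The summed squamous markers were at 86.7 to 91.3 CPM under vehicle and 93.9 to 104 under diclofenac, mostly from KRT18, and the fibroblast markers at 16 to 18.2 and 14.1 to 16, and their part in the results was not tested. Within the squamous list the directions differed: KRT8 was at 9.23 ± 0.942 CPM under vehicle and 21.5 ± 2.29 under diclofenac, EPCAM at 1.85 ± 0.427 and 3.05 ± 0.349 and CDH1 at 2.26 ± 0.274 and 3.16 ± 0.14, while under diclofenac SOX2 was at 11 ± 1.07 and KRT18 at 60.1 ± 1.81.

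Each member was tested in a fit over all 18311 genes with enough counts, with edgeR's quasi-likelihood test and Benjamini-Hochberg adjustment over all of them, and "rose" or "fell" means an adjusted p under 0.05. Most synthetases are well expressed, and among the 6854 genes at a mean of 5 log2 CPM or more 19.9% rose and 52.1% fell, with a median log2 fold change of -0.14. Of the 17 cytosolic members at that level 10 rose (58.8%) and 6 fell (35.3%), and all 9 mitochondrial members at that level fell. Falls were thus the commoner change among well-expressed genes at large as well, and whether the members' shares differ from theirs was not tested. In bulk samples, less of a transcript per cell and fewer cells that hold it cannot be told apart. In 29.5% of all tested genes every diclofenac library was above every vehicle library and in 29% every one was below. Among the 37 tested members this was so for 11 and 21. Of the 6854 genes at 5 log2 CPM or more, 1335 were separated upward and 3530 downward, and of the 30 members at that level 11 and 16. The median log2 fold change was 0.21 over the cytosolic and -0.35 over the mitochondrial members, against 0.02 over all tested genes.

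**Figure D2:**
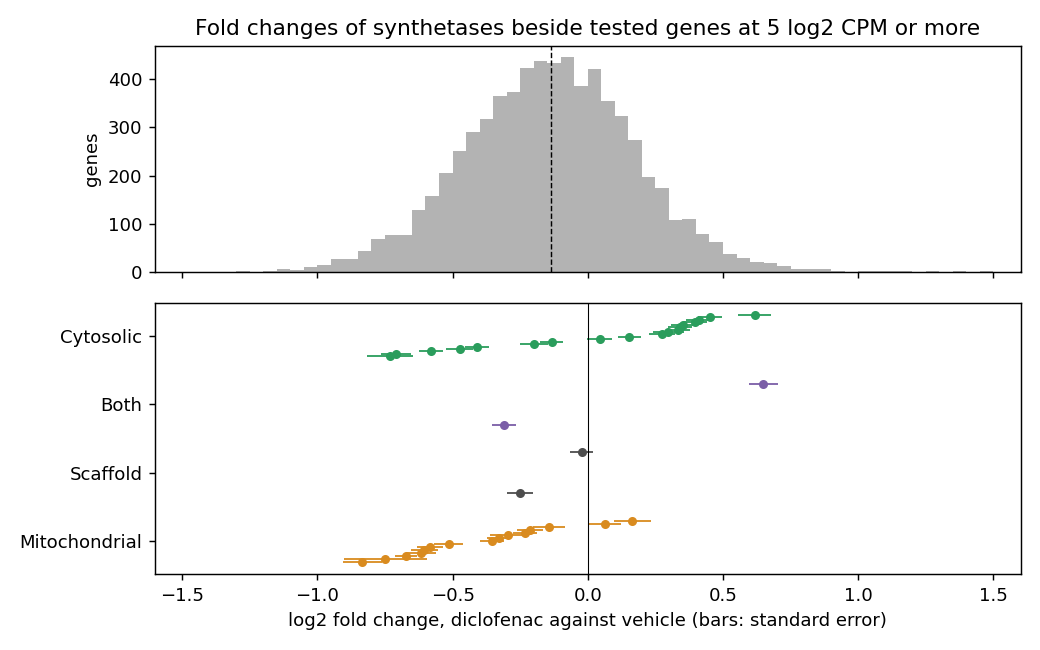
Upper panel: number of tested genes at a mean of 5 log2 CPM or more by log2 fold change of diclofenac against vehicle, with the median (dashed) at -0.14. Lower panel: log2 fold change of each tested synthetase and scaffold gene with its standard error, by compartment; the cytosolic genes spread from -0.73 to 0.62 and the mitochondrial ones from -0.83 to 0.16.

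Directions are relative to the bulk of genes, because the libraries were scaled to one another. Without that scaling, by total counts alone, the log2 fold changes of all genes moved up by a median of 0.18, and on that scale 11 cytosolic genes rose and 5 fell, and 2 mitochondrial genes rose and 9 fell. FARSB, RARS2 and AIMP1 were then called higher, EPRS1 and HARS2 turned to values above 0 with no call, and TARS3, AARS2, FARS2, NARS2 and AIMP2 lost their calls. The difference between the medians of the compartments was 0.57 on the log2 scale. A change of scaling moves all genes by nearly the same amount, so this difference could not change with it and is no check of the scaling.

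Among the cytosolic genes that rose, CARS1, AARS1 and SARS1 rose most. CARS1, which charges cysteine, stood at 47.2, 47.3 and 40.4 normalized CPM (CPM after scaling between libraries) in the vehicle libraries and at 67.1, 65.8, 69 and 73.8 in the diclofenac libraries (log2 fold change of 0.62 with an SE of 0.0594, edgeR adjusted p = 9.47e-08). AARS1, the alanine enzyme, stood at 260, 262 and 254 against 343, 351, 372 and 349 (log2 fold change of 0.45 with an SE of 0.0453, adjusted p = 1.58e-07). SARS1, which charges serine and also provides the serine from which selenocysteine is made on its tRNA, stood at 378, 380 and 361 against 468, 496, 522 and 499 (log2 fold change of 0.41 with an SE of 0.0482, adjusted p = 9.82e-07). For these 3 genes every diclofenac library was above every vehicle library.

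The other 7 rises were smaller and also without overlap between the groups. LARS1, the leucine enzyme and a leucine sensor upstream of mTORC1, had a mean of 285 ± 6.13 normalized CPM under vehicle and 375 ± 11.4 under diclofenac (SD over 3 and 4 libraries, as for the means that follow), and IARS1, the isoleucine enzyme, went from 496 ± 10.8 to 633 ± 7.58. YARS1 (tyrosine) went from 497 ± 18 to 629 ± 4.34, and MARS1 (methionine) from 360 ± 2.32 to 454 ± 10.8. WARS1 (tryptophan) and TARS1 (threonine) rose 1.23-fold and 1.21-fold, and NARS1 (asparagine) rose the least, 1.11-fold, from 181 ± 5.75 to 201 ± 3.78. MARS1 shares 355 exon bases (5.05% of its exons) with DDIT3 on the opposite strand, which rose from 9.05 ± 1.11 to 41.5 ± 2.37 normalized CPM. Whether the counting kept the strand is unstated, and the part of DDIT3 reads in the MARS1 row was not tested.

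The cytosolic genes that fell were VARS1, FARSA, QARS1, RARS1, HARS1, TARS3 and EPRS1. VARS1, the valine enzyme, stood at 26.7, 23.8 and 21.1 normalized CPM under vehicle and at 16.6, 13.4, 14.1 and 13.7 under diclofenac (log2 fold change of -0.73 with an SE of 0.0854, edgeR adjusted p = 9.62e-07). FARSA, the catalytic subunit of the phenylalanine enzyme, stood at 378, 367 and 360 against 212, 208, 248 and 234 (log2 fold change of -0.71 with an SE of 0.0562, adjusted p = 8.59e-09). QARS1, the glutamine enzyme, stood at 222, 228 and 214 against 142, 145, 154 and 151 (log2 fold change of -0.58 with an SE of 0.0445, adjusted p = 5.87e-09). In each of them all diclofenac libraries were below all vehicle libraries.

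RARS1, the arginine enzyme, fell from 314 ± 5.24 to 226 ± 12.8 normalized CPM, and HARS1, the histidine enzyme, fell from 139 ± 2.62 to 104 ± 3.79. TARS3, a second cytosolic threonine enzyme, went from 53.4 ± 1.59 to 46.4 ± 2.49 (log2 fold change -0.20), the opposite direction to TARS1, but with total counts alone it missed the threshold (-0.02, edgeR adjusted p = 0.76), as it did with upper-quartile scaling (-0.11, adjusted p = 0.068). EPRS1, which joins glutamate and proline enzymes in 1 protein, went from 516 ± 7.52 to 470 ± 4.86 (log2 fold change -0.13, edgeR adjusted p = 0.0124), and it missed the threshold with upper-quartile scaling (-0.04, adjusted p = 0.39) and with total counts alone (0.05, adjusted p = 0.31). FARSB, the other subunit of the phenylalanine enzyme, did not pass the test: it stood at 125, 132 and 134 under vehicle and 129, 139, 129 and 140 under diclofenac (log2 fold change of 0.04 with an SE of 0.0471, edgeR adjusted p = 0.434), and its groups overlapped. The subunits of this enzyme thus showed values of 0.612-fold for FARSA and 1.03-fold for FARSB.

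**Figure D3:**
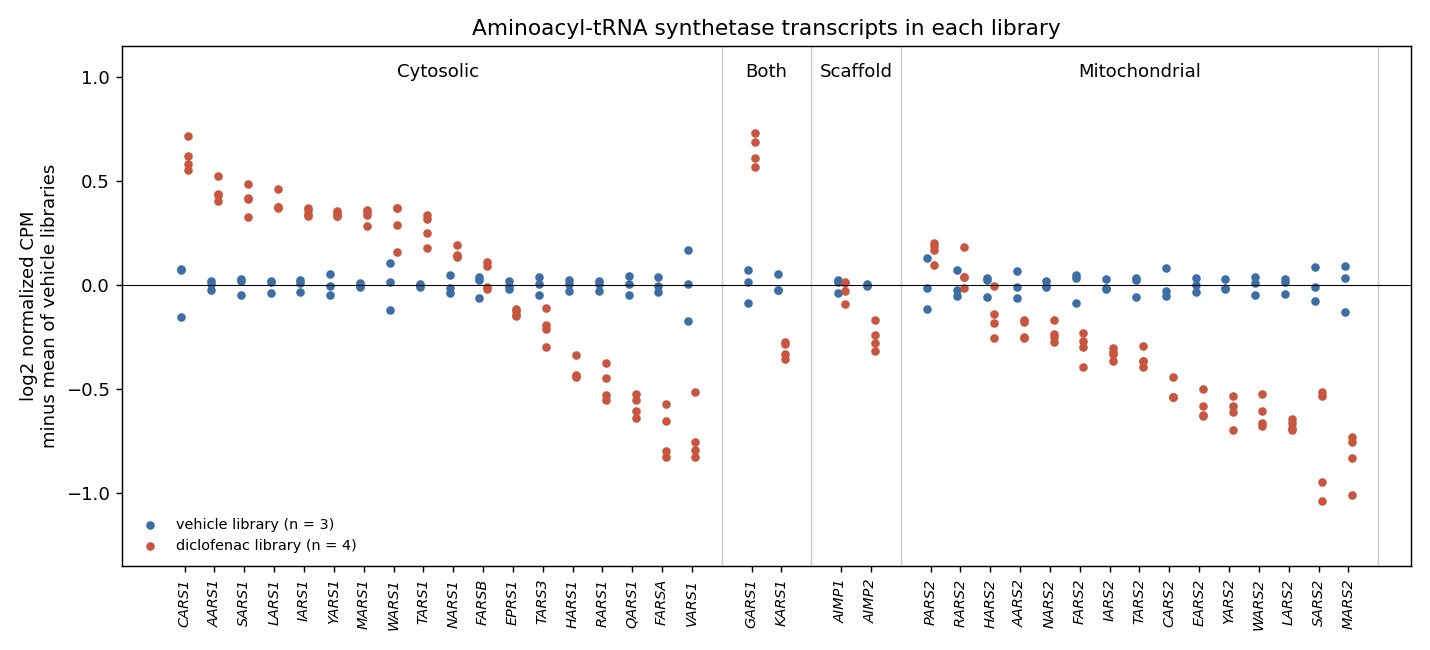
Each point is 1 library: log2 normalized CPM minus the mean of the 3 vehicle libraries (blue, vehicle; red, diclofenac), for the 37 tested members by compartment and ordered by fold change. The 10 cytosolic genes that rose and the 7 that fell stand at either end of their panel, and in the mitochondrial panel 12 genes have all red points below all blue ones.

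The enzymes shared by both compartments split. GARS1 stood at 279, 299 and 312 normalized CPM under vehicle and at 439, 453, 492 and 477 under diclofenac (log2 fold change of 0.65 with an SE of 0.0528, edgeR adjusted p = 1.18e-08). KARS1, the lysine enzyme, stood at 235, 248 and 235 against 190, 198, 187 and 197 (log2 fold change of -0.31 with an SE of 0.0438, adjusted p = 8.75e-06). The groups of neither gene overlapped, and the directions were opposite. KARS1 shares 4.33% of its exon bases with TERF2IP on the opposite strand, which had 22972 counts in all against 34939 for KARS1. The part of TERF2IP in the KARS1 values was not tested.

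Membership of the multisynthetase complex did not go with 1 direction. Of its 7 synthetases listed here, IARS1, LARS1 and MARS1 rose and EPRS1, QARS1, RARS1 and KARS1 fell, with a median log2 fold change of -0.13. Of the 13 cytosolic or shared synthetases outside the complex, 8 rose and 4 fell, with a median of 0.27. The scaffold AIMP2 fell, from 60, 60.1 and 60.4 to 48.3, 50.9, 49.6 and 53.5 normalized CPM (log2 fold change of -0.25 with an SE of 0.0473, edgeR adjusted p = 1.97e-04). Of the AIMP2 exons 28.9% are shared with EIF2AK1 on the opposite strand, which had 37040 counts in all against 9004 for AIMP2. The part of EIF2AK1 in the AIMP2 values was not tested. With total counts alone AIMP2 missed the threshold (-0.07, edgeR adjusted p = 0.23). AIMP1, the scaffold that is cut to a secreted cytokine, did not pass: it stood at 90.7, 94 and 94.6 against 91.1, 87.5, 93.9 and 93.8 (log2 fold change of -0.02 with an SE of 0.0441, edgeR adjusted p = 0.674), but by total counts alone it was called higher at 0.16.

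By catalytic class, the cytosolic and shared genes of class I (9 genes with the Rossmann-fold catalytic domain) had 6 rises and 3 falls with a median log2 fold change of 0.33, and the 10 of class II had 5 rises and 4 falls with a median of 0.10. EPRS1 holds both classes and was left out of this count. Among the mitochondrial genes, 7 of 8 tested genes of class I fell and none rose (median -0.59), and 6 of 7 of class II fell and 1 rose (median -0.23). The counts by class and by complex stand beside 30.2% of all tested genes that rose and 29.5% that fell. Among well-expressed genes 52.1% fell. Differences between the classes, or between genes inside and outside the complex, were not tested.

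The mitochondrial falls were led by MARS2, SARS2 and LARS2. MARS2 stood at 33.5, 32.2 and 28.7 normalized CPM under vehicle and at 19, 18.6, 15.6 and 17.7 under diclofenac (log2 fold change of -0.83 with an SE of 0.0720, edgeR adjusted p = 2.50e-08). LARS2, the mitochondrial leucine enzyme, stood at 140, 141 and 134 against 88.7, 87.4, 86 and 85.4 (log2 fold change of -0.67 with an SE of 0.0418, adjusted p = 4.59e-10). SARS2, the mitochondrial serine enzyme, stood at 3.7, 3.46 and 3.31 against 2.44, 2.41, 1.7 and 1.81 (log2 fold change of -0.75 with an SE of 0.153, adjusted p = 3.98e-04). In all 3 genes the groups did not overlap. SARS2 had only 438 counts over the 7 libraries, and 46.2% of its exon bases are shared with another coding gene on the same strand in the GENCODE 29 annotation. A further overlap, of 10.8% of its exon bases, is with MRPS12 on the opposite strand, which had 7367 counts in all. The level of SARS2 is therefore uncertain, and the part of these genes in its values was not tested.

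WARS2 (tryptophan), YARS2 and EARS2 fell to similar folds of 0.653, 0.658 and 0.667. EARS2 charges the mitochondrial tRNA of glutamate and also puts glutamate on the tRNA of glutamine, which the GatCAB enzyme then amidates. WARS2 shares 4.68% of its exon bases with WARS2-AS1, and EARS2 shares 6.46% with UBFD1, both on the opposite strand and each with more counts in all (7075 and 24681) than the synthetase (5441 and 9502); their part in these values was not tested. CARS2 (cysteine) fell from 37.5 ± 1.91 to 26.3 ± 0.908 normalized CPM, TARS2 (threonine) from 145 ± 4.93 to 113 ± 3.46 and IARS2 (isoleucine) from 421 ± 7.33 to 335 ± 6.4. The falls of FARS2 (phenylalanine, 0.815-fold), NARS2 (asparagine, 0.851-fold) and AARS2 (alanine, 0.862-fold) were smaller, and none of these 3 passed with total counts alone. HARS2, the mitochondrial histidine enzyme, went from 42.8, 42.4 and 40.1 to 37.9, 35, 41.6 and 36.8 (log2 fold change of -0.14 with an SE of 0.0586, edgeR adjusted p = 0.0432), with overlap between the groups. Its call was lost without any 1 of vehicle replicates 1 and 2 and diclofenac replicates 1, 2 and 4 (adjusted p = 0.121, 0.104, 0.0640, 0.160 and 0.111), with upper-quartile scaling (adjusted p = 0.437), with the filter at 1 CPM (adjusted p = 0.0925) and with DESeq2's Wald test (adjusted p = 0.0568), and with total counts alone its value turned to 0.04. HARS2 shares 437 exon bases (11.7% of its exons) with HARS1 on the opposite strand, the gene it neighbours head to head. It also shares 152 exon bases (4.07%) with ZMAT2 on the same strand, which had 18978 counts in all against 6508 for HARS2. The part of these genes in the HARS2 values was not tested.

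PARS2, the mitochondrial proline enzyme, was the only mitochondrial member called higher. It stood at 16.8, 19.9 and 18 normalized CPM against 20.4, 19.4, 20.9 and 20.7 (log2 fold change of 0.16 with an SE of 0.0676, edgeR adjusted p = 0.0436), with overlap between the groups. The call was lost without vehicle replicate 1 or 3 or diclofenac replicate 1, 3 or 4 (adjusted p = 0.262, 0.120, 0.0578, 0.0762 and 0.0796), with no filter (adjusted p = 0.144), with DESeq2's size factors (adjusted p = 0.0564) and with DESeq2's Wald test (adjusted p = 0.117). RARS2 (arginine) did not pass, at 27.3, 27.9 and 29.8 against 29.1, 29.1, 28 and 32.1 (log2 fold change of 0.06 with an SE of 0.0599, edgeR adjusted p = 0.386). VARS2 (valine) was not tested: its row held 3, 0 and 3 counts in the vehicle and 2, 3, 1 and 4 in the diclofenac libraries. GTF2H4, a general transcription factor subunit that overlaps VARS2 on the same strand, had 18 counts over all libraries, and no level of VARS2 is given from so few counts.

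Because the value of a ratio inside a library does not depend on the scaling between libraries, cytosolic and mitochondrial counts for the same amino acid were also divided within each library. No test was made of these ratios, which share libraries and, for EPRS1 and FARS2, genes. Of the 16 pairs with both genes tested, the ratio was higher in every diclofenac library than in every vehicle library for 12 and lower for 4. Separation of the groups was common among single genes too, at 29.5% of all tested genes upward and 29% downward. Among the 6854 genes at 5 log2 CPM or more it was 1335 upward and 3530 downward. The share among ratios of other gene pairs was not computed, so these counts are not read as particular to synthetases. The median difference over the pairs was 0.64 on the log2 scale. The differences of the methionine, serine, cysteine and leucine pairs were the highest and close to each other, and their order changed when libraries were left out. MARS1 over MARS2 had a log2 count ratio of 3.52 ± 0.118 under vehicle and 4.68 ± 0.156 under diclofenac (SD, n = 3 and 4).

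SARS1 over SARS2 and CARS1 over CARS2 had log2 ratios that went from 6.73 ± 0.0567 to 7.90 ± 0.326 and from 0.26 ± 0.0994 to 1.39 ± 0.101. LARS1 over LARS2 went from 1.04 ± 0.0627 to 2.11 ± 0.0579. The 10 pairs in which the cytosolic gene rose and the mitochondrial gene fell were those of alanine, cysteine, isoleucine, leucine, methionine, asparagine, serine, threonine, tryptophan and tyrosine. The threonine pair was TARS1 over TARS2, and TARS3, which fell, was not paired. The 4 lower ratios were those of RARS1 over RARS2 (from 3.47 ± 0.0448 to 2.93 ± 0.121), FARSA over FARS2 (4.23 ± 0.106 to 3.81 ± 0.0809), EPRS1 over PARS2 (4.82 ± 0.119 to 4.53 ± 0.0503) and HARS1 over HARS2 (1.73 ± 0.0611 to 1.46 ± 0.0622). In the FARSB over FARS2 and EPRS1 over EARS2 pairs the ratio was higher although the cytosolic gene did not rise.

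**Figure D4:**
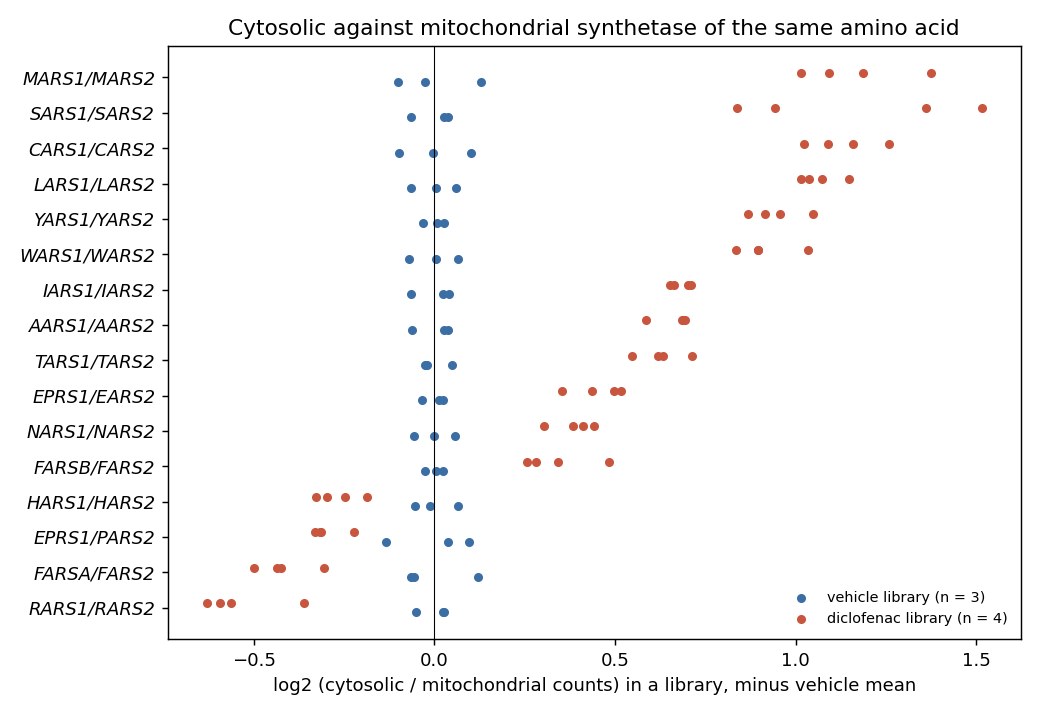
Log2 ratio of cytosolic to mitochondrial counts for the same amino acid in each library, minus the mean of the 3 vehicle libraries (blue, vehicle; red, diclofenac), for 16 pairs. All diclofenac points lie right of the vehicle points in 12 pairs and left of them in 4, from -0.54 for RARS1/RARS2 to 1.17 for MARS1/MARS2 in the mean.

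Summed over all members of a compartment, cytosolic synthetases took 4.04 ± 0.0495 times as many counts as mitochondrial ones in the vehicle libraries and 5.73 ± 0.123 times as many in the diclofenac libraries. The cytosolic sum went from 4736 ± 48 to 5158 ± 117 normalized CPM and the mitochondrial sum from 1173 ± 18.8 to 900.3 ± 7.2.

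Per length, levels of different genes can be set side by side, as normalized CPM per kilobase of exon. Under vehicle, FARSA had the highest level at 151 ± 3.61, followed by IARS2 at 101 ± 1.76, SARS1 at 97.3 ± 2.76, EPRS1 at 94.6 ± 1.38 and RARS1 at 91.7 ± 1.53. From IARS2 down to RARS1, each gene overlapped the next within 1 SD. IARS2 was thus the mitochondrial gene with the highest level, above TARS2 at 35.6 ± 1.21, YARS2 at 22.8 ± 0.411 and LARS2 at 20.3 ± 0.54. Under diclofenac the order at the top changed to SARS1 at 129 ± 5.74, GARS1 at 112 ± 5.72 and FARSA at 92.5 ± 7.75. At the low end were SARS2 at 1.08 ± 0.0607, CARS2 at 3.59 ± 0.182 and VARS1 at 3.93 ± 0.466 under vehicle. Lengths were those of all annotated exons of a gene, so genes with many rare exons read low.

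**Figure D5:**
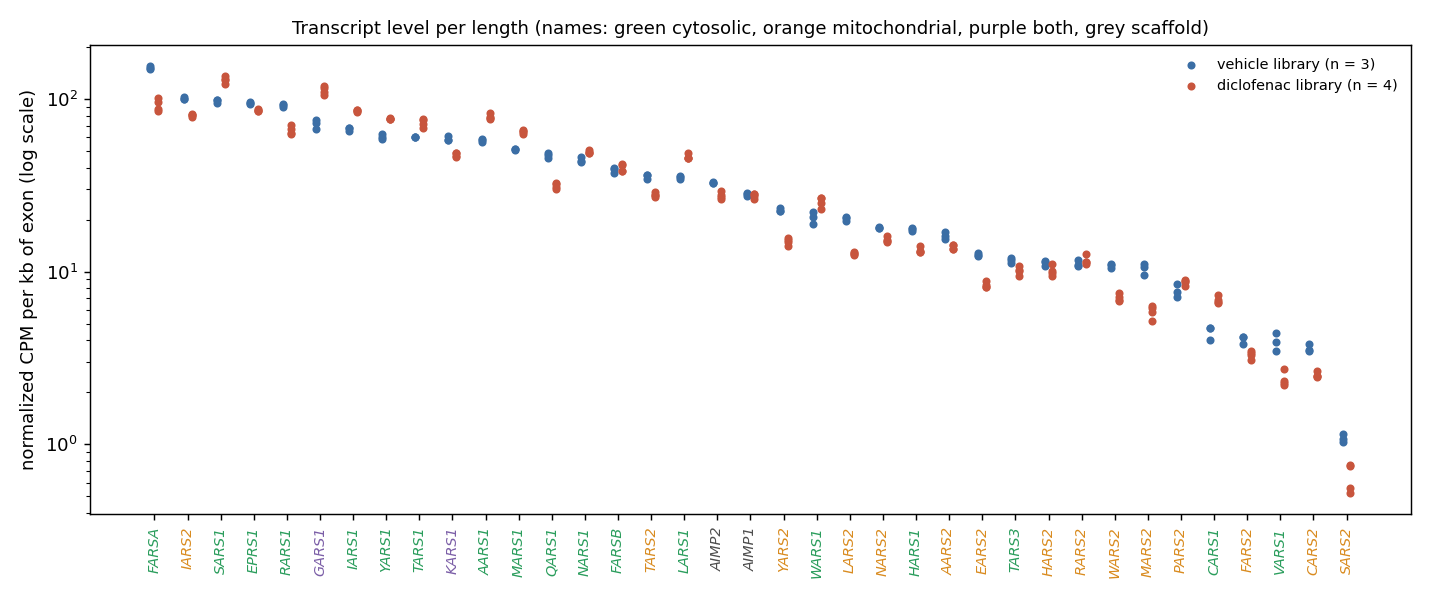
Normalized CPM per kilobase of exon (log scale) of the 37 tested members in each library (blue, 3 vehicle; red, 4 diclofenac), ordered by the vehicle mean. FARSA leads under vehicle at 151 and SARS1 under diclofenac at 129, and SARS2 is lowest in both groups.

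Partner genes of charging were read from lists of textbook members. Their counts stand beside 30.2% of all tested genes that rose and 29.5% that fell, with 52.1% falling among well-expressed genes, and nothing particular to the lists is read from them. In the mitochondrion 4 of 6 partners fell and none rose. TUFM, the elongation factor that carries charged tRNAs to the mitochondrial ribosome, fell to 324 ± 3.8 normalized CPM from 557 ± 24.6 (log2 fold change of -0.78 with an SE of 0.0450), and TSFM, its nucleotide exchange factor, fell from 11.4 ± 1.21 to 5.66 ± 0.681 (log2 fold change of -1.02 with an SE of 0.104). GATB and GATC, subunits of the GatCAB enzyme, fell by 0.34 ± 0.0494 and 0.38 ± 0.0568 in log2 units (± SE, as for the log2 changes below). The remaining subunit, QRSL1, and the formyltransferase MTFMT did not pass (edgeR adjusted p = 0.225 and 0.269).

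In the cytosol 3 of 8 tested partners rose and 3 fell. XPOT, which exports tRNAs from the nucleus, rose to 281 ± 8.89 normalized CPM from 175 ± 2.49 (log2 fold change of 0.69 with an SE of 0.0444), and the editing proteins AARSD1 and DTD2 rose by 0.54 ± 0.129 and 0.29 ± 0.0895. The elongation factor genes EEF1A1, EEF1B2 and EEF1D fell by 0.33 ± 0.0537, 0.54 ± 0.0565 and 0.48 ± 0.0549 in log2 units. EEF1E1, another scaffold of the multisynthetase complex, and DTD1 did not pass, and EEF1G was not tested. It had 1 count in all, although it encodes a subunit of an abundant elongation factor, and whether its reads or those of VARS2 and GTF2H4 were lost in the counting was not tested, so these counts do not show that the transcripts were absent. Of the selenocysteine genes, SEPSECS, which completes selenocysteine on its tRNA, rose by 0.65 ± 0.0896 and PSTK did not pass. Among 6 genes of tRNA maturation none rose and 3 fell. ELAC2, which trims the 3′ end of tRNA precursors, fell by 0.76 ± 0.0451. TRMT10C and HSD17B10 of mitochondrial RNase P fell by 0.41 ± 0.0472 and 0.52 ± 0.0679. PRORP, also of mitochondrial RNase P, did not pass (log2 fold change -0.17, edgeR adjusted p = 0.187), though its diclofenac libraries were all below the vehicle ones. TRNT1 and ELAC1 did not pass either.

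For reference, 9 of 10 genes of the amino acid response rose and none fell, a pattern already known from these data when the list was made. ATF4 itself rose to 1192 ± 83.3 normalized CPM from 856 ± 31.6 (log2 fold change of 0.48 with an SE of 0.0558), and ATF5 did not pass (adjusted p = 0.0554). CHAC1, which degrades glutathione, and TRIB3, a pseudokinase that restrains ATF4, rose by 2.31 ± 0.0765 and 1.46 ± 0.0590 in log2 units. The highest rise among the synthetase genes, that of GARS1 at 0.65, lay above that of ATF4 and below the median of 1.03 over the 10 genes.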

How the data were processed

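RNA from 7 libraries of TE11 cells was sequenced, with a directional kit per the labels' protocols. The deposited table holds raw counts per gene, 1 column per library. The submitters' processing notes name DESeq and the mouse build GRCm38, but the rows carry human symbols; aligner, counter and annotation are not given in the sources used here. Gene positions are therefore not printed, and promoter coordinates are those of RefSeq. Genes were filtered with filterByExpr (minimum count 10, minimum total 15), scaled by TMM and tested with edgeR 4.0.16 in R 4.3.3 with group as the only term; a call is an adjusted p under 0.05 over all 18311 genes, and SE comes from the F statistic. Ratios used counts plus 0.5. Exon lengths are from GENCODE 29. The edgeR step was tested on simulated data in which far fewer genes changed than were called here. That run therefore does not show how the scaling behaves under changes this widespread. All 38 members are named, with full statistics for the 3 largest rises and falls of a compartment and for members that missed the threshold. Members, lists and alternatives (DESeq2 1.42.0, limma 3.58.1, other scalings and filters, a replicate block, leaving out libraries) were chosen with earlier results of these data known. Samples sharing a replicate number did not deviate together (r = 0.000867, 0.0216 and -0.0474). At the depth reached, 1 count is 0.0377 to 0.0503 CPM. Pseudogene rows of members hold at most 0.0515% of a member's counts. The summed level of the leukocyte markers is not reported here.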

Additional observations from a re-analysis of the deposited data

Results flagged for a closer look

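Of the 37 tested members, 3 had a diclofenac library set apart from the other 3, by Dixon's ratio of the gap to the nearest library over the whole range, at the 95% level that chance exceeds in about 1 group of 20. In LARS1 and HARS1 it was replicate 3, which was the highest (392 against 369 to 370 normalized CPM, ratio 0.956, and 110 against 102 to 103, ratio 0.907). In CARS2 it was replicate 1, the highest at 27.7 against 25.8 to 25.9 (ratio 0.966). All these values lie on the same side of the vehicle libraries as those of the other diclofenac libraries. The vehicle group of 3 was not screened.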

How the results depend on the processing

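The 10 cytosolic rises were called under each alternative run other than the minimum change of 1.5-fold, which left 1 cytosolic gene higher and 2 lower, and 0 mitochondrial genes higher and 5 lower. The mitochondrial gene called higher was lost (0 called) with DESeq2 size factors, DESeq2's Wald test, no filter and a replicate block, became 2 with upper-quartile factors and with total counts alone, and ranged from 0 to 1 when each library was left out. Scaling moved the medians most: cytosolic and mitochondrial medians were 0.302 and -0.266 with upper-quartile factors and 0.396 and -0.173 with total counts alone, where 8635 of all genes were called higher and 3029 lower, against 5535 and 5402. With total counts alone EPRS1 and HARS2 turned to 0.0489 and 0.0379. AIMP1, never called lower, turned to 0.0654 with upper-quartile factors, 0.158 with total counts alone and 0.0035 with the filter at 1 CPM, and ranged from -0.0475 to 0.0033 when each library was left out. Replicate numbers are shared only by name; with the replicate block 10 cytosolic genes were called higher and 6 lower, 12 mitochondrial genes lower, and 4915 and 5003 of all genes higher and lower; EPRS1, HARS2 and PARS2 then missed the threshold (adjusted p = 0.0624, 0.126 and 0.117). The causes were not tested. SARS2 (438 counts) and VARS2 (16 counts) rest on few counts.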
